A study of Homo sapiens with 12 samples.

Results

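AADAC and AADACP1, a gene and its neighbouring pseudogene on chromosome 3, were followed by RNA-seq in human osteosarcoma cells in which E2F1 was turned on. They are 2 of the 25369 genes listed in the counts, found by their symbols, and they were chosen by their own counts here, because both rose strongly with E2F1, most with the wild-type protein and least with the R109K mutant. The differences between lines given for the pair are therefore a description, with no test. Both passed the filter on low counts, which left 16625 genes.

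The cells were U2OS, an osteosarcoma line, made into stable lines with a doxycycline-inducible (Tet-On) construct. The pTRE line carried the empty vector, the WT line HA-tagged wild-type E2F-1, the R109K line HA-tagged E2F-1 with the R109K change, an arginine to lysine exchange, and the KK line HA-tagged E2F-1 with the R111/113K change, which exchanges a pair of arginines nearby. Every line, pTRE included, received 1 ug/ml doxycycline for 24 hours, so pTRE was a control for the drug as well as for the vector. Each line had 3 replicates, which the methods call biological, 12 samples in all, and each line stood for 1 construct in 1 stable line. The E2F1 counts hold the construct and the endogenous transcript together.

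AADAC is the arylacetamide deacetylase, a serine esterase anchored in the membrane of the endoplasmic reticulum. It removes acetyl and other acyl groups from arylamide and ester drugs, such as flutamide, phenacetin and the rifamycins, and has been linked to the handling of stored triacylglycerol. It is known as an enzyme of liver and intestine rather than of bone. AADACP1 is a pseudogene copy, with an exon layout like that of the gene. E2F1 is a transcription factor best known for driving the genes of S phase entry and DNA synthesis, and the arginines exchanged here are known targets of arginine methyltransferases.

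In GRCh37, AADAC lies on the plus strand at chr3:151531861-151546276, and AADACP1 lies upstream of it on the same strand at chr3:151488184-151502733, with a gap of 29170 bases between them. The canonical AADAC transcript of GENCODE, AADAC-201, has 5 exons and 1563 bases. For AADACP1 the annotation holds a pseudogene record of 5 exons and 1193 bases, AADACP1-201, and a canonical long noncoding transcript of 3 exons and 1400 bases, AADACP1-205. AADACL2-AS1, an antisense noncoding gene, spans both on the minus strand, but its annotated exons share 0 bases with those of either gene. Which exons were counted for AADACP1, and whether the counting used strand, is not given in the sources used here.

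Since reads can be split between near-identical copies, the sequences were compared. The first coding stretch of AADAC, exon 1 from its start codon to the end of the exon (chr3:151531951-151532088), is set beside the matching stretch of AADACP1 (chr3:151488262-151488399), because it shows how far the copies have drifted apart. Both are read 5′ to 3′ from the plus strand of GRCh37, and capitals mark the 37 of 138 positions where they differ.
AADAC exon 1 coding stretch: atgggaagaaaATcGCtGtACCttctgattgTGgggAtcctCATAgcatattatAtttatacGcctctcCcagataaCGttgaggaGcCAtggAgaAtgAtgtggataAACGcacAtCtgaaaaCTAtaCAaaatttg
AADACP1 exon 1 stretch: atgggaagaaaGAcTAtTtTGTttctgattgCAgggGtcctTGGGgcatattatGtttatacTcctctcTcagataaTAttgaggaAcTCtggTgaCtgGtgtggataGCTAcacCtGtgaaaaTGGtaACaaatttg

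Over the 5 exons, 80.5% of 1172 aligned bases were identical. Identity was 73.2% in exon 1, 74.1% in exon 2, 88.3% in exon 3, 81.2% in exon 4 and 83.7% in exon 5, and exons 2, 3 and 4 had the same lengths in both copies, of 223, 70 and 172 bases. The alignment was local and left out unlike ends, so the value of exon 3 covers 60 of its 70 bases, of which 53 were identical. The longest identical run was 50 bases. Of 1489 windows of 75 bases along the AADAC transcript, 0 had a copy in the AADACP1 locus with at most 2 mismatches, the number the authors allowed in alignment. Of 1514 windows of 50 bases, 26 (1.72%) had one. The read length is not given in the sources used here, and other parts of the genome were not searched.

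**Figure D1:**
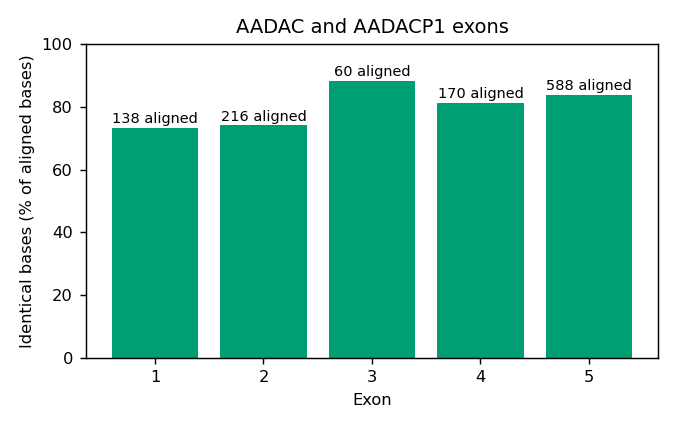
Identity of the AADAC and AADACP1 exons in GRCh37, in percent of the aligned bases (vertical axis), for each of the 5 exons (horizontal axis), with the number of aligned bases above each bar. Exons 1 and 2 have the lowest identity, at 73.2% and 74.1%. Exon 3 has the highest, at 88.3%, but over 60 of its 70 bases, since the local alignment left out unlike ends.

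Depth, as reads counted on genes, lay between 11500537 and 31040903. The shallowest sample, WT replicate 2, stood apart, with 58.7% of its reads outside annotated genes against 23.6% to 29.6% in the other samples, so the WT values of the pair are also given without it. Replicates of a line differed by 8.85 to 56.6 times the counting noise (chi-square per degree of freedom), so none was a plain re-sequencing of another's library. This value cannot tell separate cultures from separate libraries of the same culture. Of the 15 markers of osteosarcoma and mesenchymal cells, 13 passed the filter, among them VIM and COL1A1, while TWIST1 had at most 1 read and COL1A2 at most 16 reads in any sample.

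Across all genes tested, a gene was called changed at an adjusted p under 0.01 with a change over 2-fold. E2F1 checked the label of pTRE against those of the E2F1 lines. Counts per gene hold no sequence, so they cannot check which of the E2F1 lines carried which construct. The E2F1 level, in CPM (read counts scaled to library size after TMM normalization), was 89.2, 82.9 and 101 in the pTRE replicates, 2315, 1650 and 1469 in WT, 1283, 1260 and 932 in R109K and 1360, 1478 and 1112 in KK. Every E2F1 line lay above pTRE, with log2 fold changes of 4.31 in WT (SE 0.20, adjusted p = 3.62e-09), 3.85 in KK (SE 0.20, adjusted p = 4.75e-09) and 3.67 in R109K (SE 0.20, adjusted p = 1.52e-08) by edgeR's quasi-likelihood test. R109K had less E2F1 transcript than WT in every replicate, with a log2 difference of -0.65 (SE 0.18), which missed the threshold at an adjusted p of 0.0577. R109K and KK overlapped, and their difference was -0.18 (SE 0.18, adjusted p = 0.773).

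AADAC was nearly silent in the control line. Its counts were 12, 15 and 15 reads in the pTRE replicates, 333, 172 and 234 in WT, 98, 95 and 96 in R109K and 194, 177 and 203 in KK. As levels, these were 0.496, 0.570 and 0.551 CPM in pTRE, 11.9, 13.8 and 8.46 CPM in WT, 3.18, 3.45 and 3.93 CPM in R109K and 6.71, 8.50 and 8.01 CPM in KK. The lines ran from pTRE through R109K and KK to WT, with no overlap except between KK and WT, where the highest KK replicate reached just above the lowest WT replicate. The means, with SD over 3 replicates, were 11.4 ± 2.71 CPM in WT, 7.74 ± 0.924 in KK, 3.52 ± 0.382 in R109K and 0.539 ± 0.0386 in pTRE. Without WT replicate 2 the WT mean was 10.2 CPM. In bulk RNA, more cells with the transcript and more transcript per cell cannot be told apart.

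AADACP1 had counts of the same order. They were 13, 13 and 18 reads in pTRE, 320, 163 and 161 in WT, 139, 103 and 88 in R109K and 243, 116 and 151 in KK. Its levels were 0.537, 0.494 and 0.661 CPM in pTRE, 11.4, 13.1 and 5.82 CPM in WT, 4.51, 3.74 and 3.60 CPM in R109K and 8.41, 5.57 and 5.96 CPM in KK. The order of the line means was that of AADAC, but the spread within WT was wider, and WT replicate 3 fell among the KK replicates. The means, with SD over 3 replicates, were 10.1 ± 3.80 CPM in WT, 6.65 ± 1.54 in KK, 3.95 ± 0.486 in R109K and 0.564 ± 0.0868 in pTRE. Without WT replicate 2 the WT mean was 8.61 CPM.

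**Figure D2:**
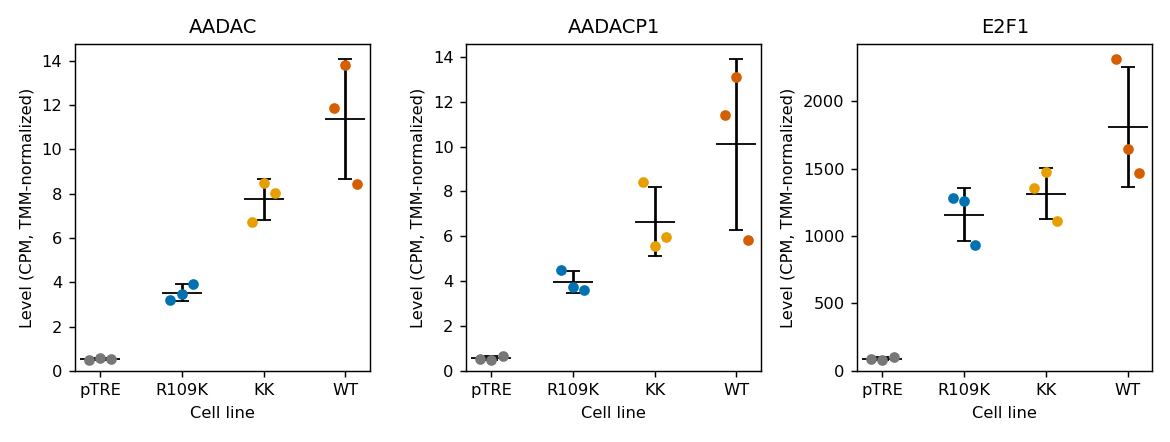
Levels of AADAC, AADACP1 and E2F1 in CPM (vertical axes, linear from 0) in the pTRE, R109K, KK and WT lines (horizontal axes), with 1 point per replicate, a horizontal line at the mean and bars of 1 SD (n = 3). AADAC and AADACP1 stay below 0.7 CPM in pTRE and step up through R109K and KK to WT, while the R109K and KK points overlap for E2F1 only.

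Against pTRE, AADAC had log2 fold changes of 4.37 in WT (SE 0.24), 3.83 in KK (SE 0.24) and 2.69 in R109K (SE 0.24), which are 20.7-, 14.2- and 6.46-fold. AADACP1 had log2 fold changes of 4.13 in WT (SE 0.32), 3.55 in KK (SE 0.32) and 2.80 in R109K (SE 0.33), or 17.5-, 11.7- and 6.95-fold. Without WT replicate 2 the WT values were 4.22 for AADAC and 3.92 for AADACP1. In order of size among the 16625 genes tested, from the highest fold change down, AADAC ranked 61 in WT, 79 in KK and 122 in R109K, and AADACP1 ranked 74, 97 and 113. The median log2 fold change of all genes tested was close to 0 in each line, at 0.0022 in WT, -0.0091 in KK and -0.00074 in R109K.

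Between the E2F1 lines the gap was widest for R109K against WT. AADAC was lower in R109K than in WT by a log2 difference of -1.68 (SE 0.19, 3.21-fold lower in R109K), and 1.05% of the genes tested had a lower value in this comparison, in which 0.343% were called changed. AADACP1 was lower by -1.34 (SE 0.26, 2.52-fold lower), with 1.94% of genes below it. Without WT replicate 2 these differences were -1.54 and -1.12, and without WT replicate 3 they were -1.85 and -1.62. For R109K against KK, the log2 differences were -1.14 for AADAC (SE 0.19) and -0.75 for AADACP1 (SE 0.26). In this comparison 0.794% and 2.75% of genes had a lower value, and 0.0902% of all genes were called. The replicates did not overlap for either gene, but the pair was chosen as lowest in R109K. The share of all genes without overlap was not counted. For KK against WT, the log2 differences were -0.55 for AADAC (SE 0.18) and -0.58 for AADACP1 (SE 0.25), with overlapping replicates. In that comparison 0.00602% of genes were called. The differences became -0.40 and -0.37 once WT replicate 2 was left out. The 3 comparisons with pTRE share the same controls, and those between lines share samples with each other.

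Per kilobase of transcript, gene and pseudogene reached like levels. With the canonical transcripts, AADAC had 0.345 CPM per kb in pTRE, 2.25 in R109K, 4.95 in KK and 7.28 ± 1.73 in WT, and AADACP1 had 0.403, 2.82, 4.75 and 7.22 ± 2.72 (mean, SD for WT, n = 3). This likeness depends on the exons taken for AADACP1. With the union of all annotated exons, of 1632 bases for AADAC and 2095 for AADACP1, the WT levels were 6.97 and 4.82 CPM per kb.

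The ratio of the pair, which does not depend on the depth of a sample, overlapped across the lines. AADACP1 reads per AADAC read (mean ± SD, n = 3) were 1.05 ± 0.169 in pTRE, 0.884 ± 0.322 in KK, 1.14 ± 0.255 in R109K and 0.866 ± 0.154 in WT, and single samples ran from 0.655 to 1.42. No line lay apart in this ratio, while the counts of each gene differed many fold between them.

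Set against E2F1, the R109K line stood out. AADAC reads per 1000 E2F1 reads (mean ± SD, n = 3) were 5.95 ± 0.799 in pTRE, 5.97 ± 1.15 in KK, 6.42 ± 1.72 in WT and 3.14 ± 0.938 in R109K. The R109K replicates, at 2.48 to 4.22, lay below the 9 samples of the other lines, of which the lowest had 4.94. The pTRE, KK and WT lines overlapped with each other, and the log2 fold changes of AADAC and E2F1 were 4.37 and 4.31 in WT and 3.83 and 3.85 in KK. WT replicate 2 had the highest ratio of all samples for both genes, 8.37 for AADAC and 7.93 for AADACP1. Without it the WT mean was 5.44 for AADAC and 4.44 for AADACP1, and the log2 fold changes of AADAC and E2F1 in WT were 4.22 and 4.37. AADACP1 reads per 1000 E2F1 reads were 6.16 ± 0.306 in pTRE, 5.10 ± 1.23 in KK, 5.61 ± 2.07 in WT and 3.45 ± 0.451 in R109K. For it the R109K replicates, at 2.97 to 3.87, overlapped with KK, whose lowest replicate had 3.77, and lay just below the lowest WT replicate, at 3.96. Of the log2 differences between R109K and WT, that of AADAC (-1.68) was larger than that of E2F1 (-0.65), a gap that was not tested.

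**Figure D3:**
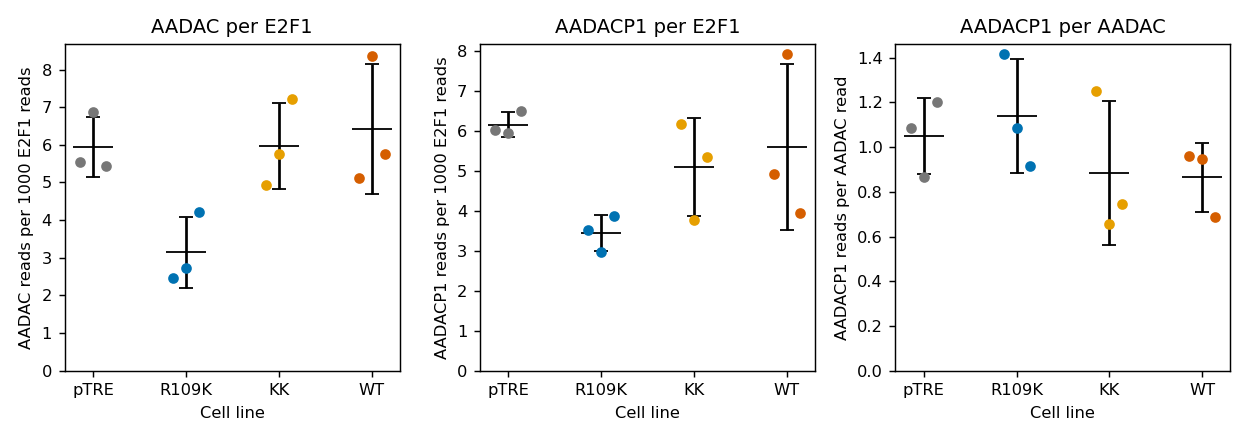
AADAC and AADACP1 reads per 1000 E2F1 reads, and AADACP1 reads per AADAC read (vertical axes, linear from 0), in each replicate of the 4 lines (horizontal axes), with the mean and bars of 1 SD (n = 3). R109K is the lowest line for AADAC per E2F1, at 3.14 ± 0.938, while the lines overlap in the ratio of the pair.

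Whether a sample with more E2F1 than the rest of its line also had more of the pair was tested on deviations from the line means, which the choice of genes did not use. For AADAC and E2F1, Pearson's r was 0.0782 (exact permutation within lines, two-sided p = 0.893, Benjamini-Hochberg adjusted p = 0.893 over 3 relations, n = 12) and Spearman's rho was -0.00699 (exact permutation p = 0.990). For AADACP1 and E2F1, r was 0.497 (exact permutation p = 0.300, adjusted p = 0.794) and rho was 0.378 (exact permutation p = 0.349). AADAC and AADACP1 had an r of 0.441 (exact permutation p = 0.529, adjusted p = 0.794) and a rho of 0.0909 (exact permutation p = 0.846). Without the 2 samples farthest from the median on the x axis, r was 0.155, 0.450 and -0.598 in the same order, so the positive r of AADAC with AADACP1 rested on those samples. No relation within lines was detectable with 12 samples. Over the 9 samples of the E2F1 lines, which were picked for their order, AADAC and E2F1 had r = 0.681 and rho = 0.783, AADACP1 and E2F1 r = 0.770 and rho = 0.717, and the pair r = 0.870 and rho = 0.767, as a description of samples that differ in line.

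**Figure D4:**
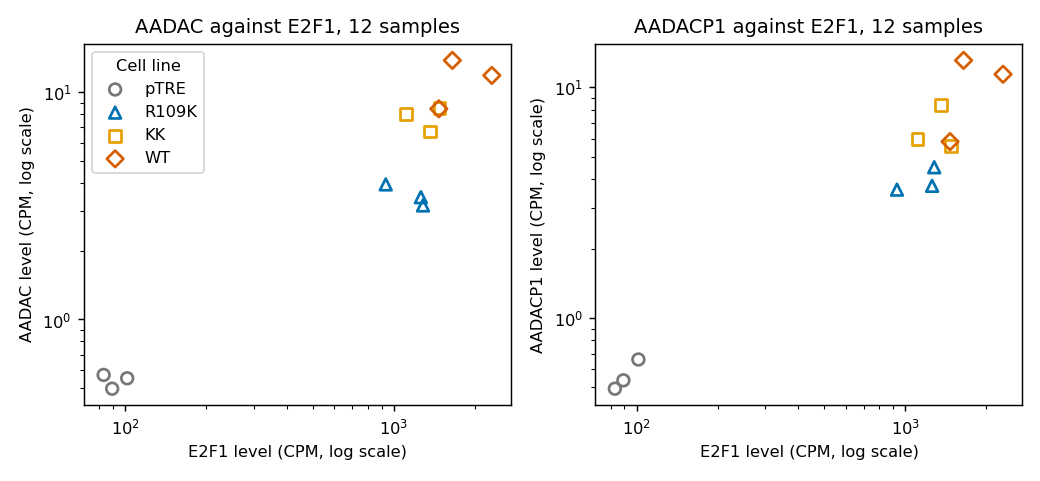
AADAC (left) and AADACP1 (right) level against E2F1 level, both in CPM on log axes, with 1 symbol per sample and a colour and shape per line. The pTRE samples lie apart at the lower left, and the R109K samples, at 3.18 to 3.93 CPM of AADAC, lie below every KK and WT sample while their E2F1 levels, 932 to 1283 CPM, overlap with those of KK.

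Pooled over the 12 samples of all lines, the levels of other genes ran close to those of the pair. Among the 13304 genes whose mean count reached 50, the 10 whose log2 CPM had the highest Pearson correlation with AADAC were LOC646762 (r = 0.990), C3orf67, TERF2, HRK, WHAMMP3, GNAL, CCDC176, NGFR, LINC00997 and TAF4 (r = 0.987). TERF2 encodes a telomere-binding protein, HRK a BH3-only activator of apoptosis, NGFR a neurotrophin receptor and TAF4 a subunit of TFIID. For AADACP1 they were BCL2L11 (r = 0.994), which encodes the BH3-only protein BIM, then GNAL, CCDC176, GRHL1, LOC646762, ABCA5, KCNA3, ST7, HAS3 and SFMBT1 (r = 0.991). GNAL, CCDC176 and LOC646762 were on both lists. AADACP1 was 32nd in likeness to AADAC (r = 0.980), AADAC was 86th in likeness to AADACP1, and E2F1 came 310th for AADAC (r = 0.954) and 227th for AADACP1 (r = 0.969). Such values are common here, since 6.94% of the ranked genes had r above 0.9 with AADAC and 7.88% with AADACP1, and all share the same libraries. They also take in the differences between lines, by which the pair was chosen. For AADAC with AADACP1, r was 0.980 pooled but 0.441 within lines, so these lists do not show likeness within a line. The 10 genes closest to AADAC had smaller log2 fold changes than AADAC itself, for example 2.49 for LOC646762, 0.61 for TERF2 and 2.22 for HRK in WT against pTRE. Every gene named on either list had its largest rise in WT and its smallest in R109K, as did the pair. In WT, KK and R109K the values were 2.49, 2.24 and 1.72 for LOC646762 and 3.51, 2.99 and 2.22 for ABCA5. The smaller rise in R109K was therefore not particular to the pair, although the correlation that picked these genes takes in this order.

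The upstream sequences of the pair are shown because a copied gene may or may not carry its promoter along. Each line gives the 250 bases before the annotated start in GRCh37, on the plus strand and 5′ to 3′, for AADAC at chr3:151531654-151531903 and for AADACP1 at chr3:151487934-151488183. Capitals mark CG dinucleotides, of which AADAC has 0 and AADACP1 has 2.
AADAC upstream: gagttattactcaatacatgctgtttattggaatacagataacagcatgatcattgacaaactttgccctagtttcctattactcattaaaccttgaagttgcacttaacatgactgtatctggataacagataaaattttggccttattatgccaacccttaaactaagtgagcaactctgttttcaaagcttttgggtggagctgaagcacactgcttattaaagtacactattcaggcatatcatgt
AADACP1 upstream: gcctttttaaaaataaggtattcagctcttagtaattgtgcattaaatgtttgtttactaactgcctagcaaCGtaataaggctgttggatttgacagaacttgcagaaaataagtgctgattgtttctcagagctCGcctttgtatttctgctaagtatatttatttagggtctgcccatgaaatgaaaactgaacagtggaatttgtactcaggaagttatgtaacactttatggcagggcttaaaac

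Both stretches have a GC content of 35.6%. In the window from 250 bases before to 50 after the start, GC was 37.3% for AADAC and 36.0% for AADACP1, against a median of 62.0% over 22984 promoters, of which 4.88% and 3.64% had as little or less. The alignment over exon 1 ran on for only 4 bases upstream of the start codon. Without gaps, 24.8% of the 250 bases before the start codons were identical, a value that a single inserted or lost base could lower. Within the 1000 bases upstream, the best local alignment covered 37 bases at 86.5% identity. The E2F motif was searched as TTTCCCGC, TTTCGCGC, TTTGCCGC and TTTGGCGC on both strands, from 900 bases before to 100 after the start. AADAC and AADACP1 had 0 matches each, and 8.15% of 22977 promoters had at least 1. The same motifs without their first T, which the longer ones contain, also had 0 matches in both, while 29.4% of promoters held one. No match says only that these letters are not in these windows.

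Of the 4 closest relatives of AADAC, only 1 had enough reads to test, and it was not called. Of all genes tested, 14.4% were called in at least 1 line. NCEH1, the neutral cholesterol ester hydrolase of the same family, lies elsewhere on chromosome 3 and was the relative tested. Its level went from 26.0 CPM in pTRE to 40.4 in WT, 38.7 in R109K and 38.5 in KK, with log2 fold changes of 0.64 (SE 0.14, adjusted p = 0.0017), 0.57 (SE 0.14, adjusted p = 0.0050) and 0.57 (SE 0.14, adjusted p = 0.0039). These are under 2-fold, and its R109K and WT levels differed by a log2 value of -0.07 (adjusted p = 0.799). AADACL2 and AADACL3 had at most 1 read in any sample, and AADACL4 had 0 in all 12. Per kilobase, NCEH1 at 8.91 CPM in WT was close to the 7.28 of AADAC, whereas in pTRE it had 5.73 against 0.345.

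Within 1 Mb of the AADAC start the counts hold 16 other genes, of which 6 passed the filter and 2 were called in at least 1 of the 3 lines, where 14.4% of all genes tested were called. MED12L, which encodes a relative of the Mediator subunit MED12 and starts 728 kb upstream, rose in all 3 lines, from 16.0 CPM in pTRE to 34.1 in R109K, 44.7 in KK and 54.1 in WT. Its log2 fold changes were 1.09 (SE 0.22, adjusted p = 0.00183), 1.49 (SE 0.22, adjusted p = 0.000107) and 1.75 (SE 0.23, adjusted p = 2.39e-05) in that order, and its difference between R109K and WT was -0.66 (adjusted p = 0.106). P2RY14, a receptor for UDP-sugars, was called in WT (log2 fold change 4.79, SE 1.26, adjusted p = 0.00716) on 1 library, with 10, 181 and 5 reads in the WT replicates. Without WT replicate 2 its log2 fold change was 0.67 (adjusted p = 0.402). GPR171, P2RY13, P2RY12 and TMEM14E were likewise high in that library alone, with 97, 26, 28 and 60 reads, and were below the filter. P2RY14, GPR171, P2RY13 and P2RY12 lie within the span of MED12L on the opposite strand, and TMEM14E lies likewise within MBNL1. Whether the counting used strand is not given, so their reads cannot be told apart from reads of these host genes.

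Nearer to the pair there was little transcript. SUCNR1, the succinate receptor, 59.5 kb downstream, had 0 reads in every pTRE sample and at most 4 in any other. AADACL2-AS1, antisense to both genes, had 0 reads in every pTRE sample, 7, 9 and 3 in WT, 4, 3 and 0 in R109K and 3, 1 and 3 in KK. It was below the filter, beside 161 to 333 reads for each gene of the pair in WT. Farther downstream, MBNL1, a splicing regulator, had log2 fold changes of 0.22, 0.10 and 0.23 in WT, KK and R109K (adjusted p = 0.255, 0.646 and 0.284), and its antisense gene MBNL1-AS1 was not called either. Upstream, IGSF10, an immunoglobulin superfamily gene, had log2 fold changes of -0.84 in WT (adjusted p = 0.104), -1.16 in KK (adjusted p = 0.0327) and -1.39 in R109K (adjusted p = 0.0175). It was not called, although it passed the thresholds under DESeq2, with no filter on low counts and without WT replicate 1, WT replicate 2, R109K replicate 3 or KK replicate 2. CLRN1, CLRN1-AS1 and MIR5186 had at most 5 reads in any sample. The 6 tested neighbours had a median log2 fold change of 0.0019 in WT, beside 0.0022 for all genes.

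**Figure D5:**
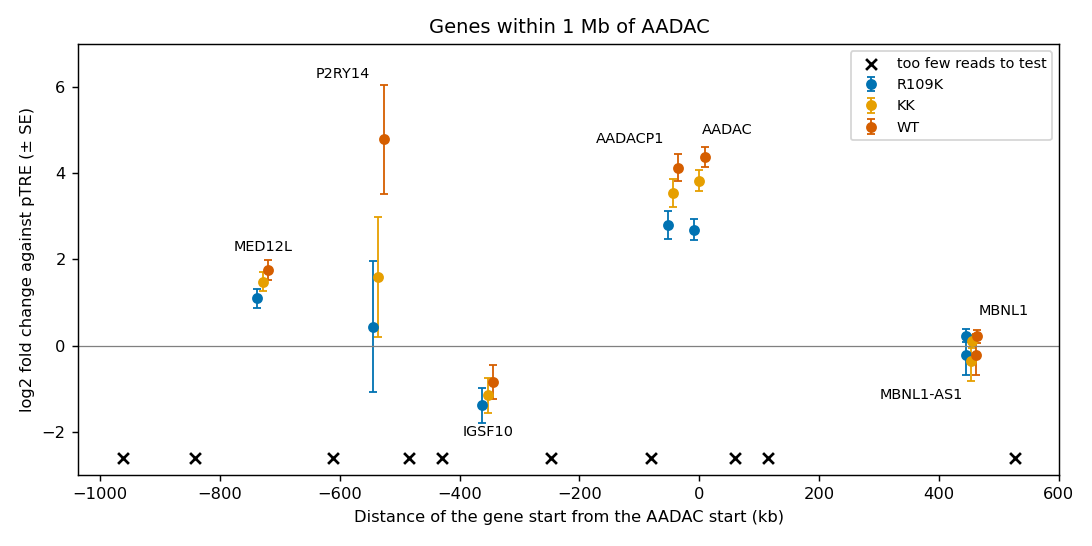
Log2 fold change against pTRE, with bars of 1 SE, for genes within 1 Mb of AADAC (vertical axis) by the distance of their start from the AADAC start in kb (horizontal axis), with the 3 lines set slightly apart. AADAC and AADACP1 stand at 2.69 to 4.37, MED12L at 1.09 to 1.75, the wide P2RY14 bar rests on WT replicate 2, and crosses mark 10 genes with too few reads to test.

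Other esterases and neutral lipid hydrolases, chosen for kinship of function, were mostly not called. Of 28, 23 passed the filter, and 3 were called in WT (1 up, 2 down), 6 in KK (2 up, 4 down) and 2 in R109K (both down), where 11.8% of all genes were called in WT (7.89% up, 3.93% down), 10.9% in KK (7.01% up, 3.9% down) and 7.19% in R109K (4.64% up, 2.56% down). The medians were -0.33, -0.05 and -0.23. LIPA, the lysosomal acid lipase, fell in WT and KK (log2 fold change -1.01 in WT, adjusted p = 5.00e-05), PNPLA3, a lipase of lipid droplets, fell in all 3 lines (-1.21 in WT, adjusted p = 0.000424), and LIPC, the hepatic lipase, fell in KK and R109K (-1.56 in KK, adjusted p = 0.000925). ACHE, acetylcholinesterase, fell in KK (-1.18, adjusted p = 0.000529). ABHD5, the coactivator of adipose triglyceride lipase, rose in WT and KK (1.16 in WT, adjusted p = 3.47e-06), and PON3, a lactonase, rose in KK (1.56, adjusted p = 0.00946). CES2, the carboxylesterase of intestine that shares drug substrates with AADAC, had 35.7 CPM in pTRE and 25.4 in WT (log2 fold change -0.49, adjusted p = 0.0134), and CES1, that of liver, had at most 5 reads.

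Enzymes and regulators of drug metabolism, the setting in which AADAC is best known, mostly had too few reads to test. Of 30, 20 were below the filter, with at most 11 reads in any sample, and 2 of the 10 tested were called in at least 1 line, beside 14.4% of all genes. Their median log2 fold change was -0.09 in KK, -0.23 in R109K and -0.42 in WT. The most abundant were GSTP1, a glutathione transferase (322 CPM in pTRE, 241 in WT), POR, the electron donor of the cytochromes P450 (104 and 63.8 CPM), and EPHX1, an epoxide hydrolase (65.4 and 34.3 CPM), none of them called. EPHX1 and POR had log2 fold changes of -0.93 and -0.71 in WT (adjusted p = 8.60e-05 and 0.000867), short of the 2-fold change that a call needs. CYP2E1, a cytochrome P450 of liver, was called in R109K only, rising to 2.12 ± 0.155 CPM from 0.515 ± 0.0852 in pTRE (n = 3 each, log2 fold change 2.03, SE 0.29, adjusted p = 0.000117). SULT1A1, a phenol sulfotransferase, fell in all 3 lines, with log2 fold changes of -1.96 in WT (adjusted p = 0.000194), -1.28 in KK (adjusted p = 0.00375) and -1.20 in R109K (adjusted p = 0.00718).

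Most markers of the tissues that normally make AADAC were low. Of 30 liver and lipoprotein genes 18 were below the filter, among them ALB, APOA1, APOB, TTR and HNF4A, and FGA and FABP1 had 0 reads in all samples. Their summed level was 133 to 157 CPM in pTRE, 101 to 129 in KK, 87.2 to 116 in R109K and 94.7 to 117 in WT, so it was lower in every E2F1 sample than in pTRE. SERPINA1, PPARA and CPS1, at 65.8, 35.8 and 26.2 CPM in pTRE and 26.5, 41.1 and 13.7 in WT, made up most of that sum. PPARA was not called (log2 fold change 0.19 in WT, 0.09 in KK and 0.03 in R109K). The median log2 fold change of the 12 tested was above 0, at 0.27 in KK, 0.34 in R109K and 0.20 in WT. Of the 12, 4 were called in at least 1 line, beside 14.4% of all genes. SERPINA1 fell in WT and R109K (-1.30 in WT, adjusted p = 0.00698), and CPS1 fell in R109K (-1.22, adjusted p = 1.09e-05). FOXA3, a forkhead factor of liver, rose in all 3 lines (1.96 in WT, adjusted p = 0.000223), and CEBPA rose in WT and KK (1.67 in WT, adjusted p = 0.000689). Of 15 intestinal genes 9 were below the filter, with CDX1 and ALPI at 0 in all samples, and 2 of the 6 tested were called in at least 1 line, beside 14.4% of all genes. Their median log2 fold change was 0.66 in KK, 0.35 in R109K and 0.27 in WT. DPP4 rose in WT and KK (1.07 in WT, adjusted p = 0.000221), and KRT20, which had at most 2 reads in a pTRE sample and 8 to 26 in the others, rose in all 3 lines (3.55 in WT, SE 0.68, adjusted p = 0.000707, a fitted value that depends on the prior count). The summed intestinal level was 7.60 to 8.89 CPM in pTRE, 15.0 to 15.9 in KK, 10.1 to 12.5 in R109K and 13.7 to 17.4 in WT. DPP4 made up most of it, at 4.84 CPM in pTRE, 9.84 in KK, 6.42 in R109K and 10.2 in WT. CDX2, an intestinal homeobox factor, had 2.21 CPM in pTRE, 3.46 in KK, 3.38 in R109K and 2.89 in WT and was not called. The part of these genes in the change of AADAC was not tested.

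Some markers of the cells themselves fell. Of the 13 osteosarcoma and mesenchymal markers tested, 6 fell in WT, 6 in KK and 2 in R109K, and 0 rose past the thresholds, beside 3.93%, 3.9% and 2.56% of all genes called down, with medians of -0.86, -0.69 and -0.63. VIM, the mesenchymal intermediate filament, was not called (log2 fold change -0.25 in WT, -0.06 in KK and 0.09 in R109K), nor were FN1, RUNX2, ALPL, LGALS1 and S100A6. In WT the log2 fold changes were -2.65 for COL1A1, -1.93 for COL5A1, -1.37 for SPARC, -1.14 for CAV1, -1.07 for THY1 and -1.06 for COL6A1, a set of collagens, a matrix protein, a caveolar protein and a surface glycoprotein (adjusted p from 8.57e-09 to 0.00012). Their summed level, over all 15, was 8913 to 10555 CPM in pTRE, 4112 to 4985 in KK, 5115 to 5268 in R109K and 3445 to 4495 in WT. This sum was lower in every E2F1 sample than in pTRE. A few genes dominated it, since COL1A1, SPARC and VIM had 3557, 1613 and 1554 CPM in pTRE and 567, 626 and 1305 in WT. The part of these markers in the change of AADAC was not tested.

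Classical E2F targets stood beside the pair as a reference for the R109K line. All 16 were tested, and 5 rose in WT, 5 rose and 1 fell in KK and 4 rose in R109K, beside 7.89%, 7.01% and 4.64% of all genes called up. The median log2 fold changes of the 16 were 0.29, 0.37 and 0.45 in that order. RRM2, a subunit of ribonucleotide reductase, rose by a log2 fold change of 2.37 in WT, 2.39 in KK and 2.28 in R109K (adjusted p = 1.20e-08, 1.22e-08 and 5.09e-08). CCNE1 and CCNE2, the E cyclins, rose by 1.59 and 2.24 in WT (adjusted p = 1.98e-07 and 1.07e-07), APAF1, the apoptosome scaffold, by 1.39 in WT (adjusted p = 5.68e-05) and TP73, a p53 relative, by 2.53 in KK (adjusted p = 1.35e-08), whereas MCM5, a subunit of the replicative helicase, fell in KK (-1.02, adjusted p = 5.13e-06). Changes short of 2-fold in WT went both ways. MCM5, MCM6, TK1 and MCM3 fell by -0.91, -0.88, -0.94 and -0.54 (adjusted p from 1.45e-05 to 0.00161 by edgeR). CDC25A and E2F2 rose by 0.998 and 0.76 (adjusted p = 5.30e-06 and 5.23e-05 by edgeR). For the 5 that rose in WT, the difference between R109K and WT ran from -0.59 for APAF1 (adjusted p = 0.0982) to -0.05 for CCNE1 (adjusted p = 0.847), and none was called, beside the 0.343% of all genes. These 5 were picked by their rise in WT, itself a line of this comparison. Over all 16 targets the median was -0.03 and 0 were called, with values from -0.59 for APAF1 to 0.60 for TK1 (adjusted p = 0.0636 by edgeR). The values of the pair in that comparison were -1.68 and -1.34, and the difference between the pair and these targets was not tested. The genes closest to the pair in level, listed above, also rose least in R109K.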

How the data were processed

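RNA-seq was analysed in 12 samples. The authors trimmed reads with TrimGalore (0.4.3), aligned them to hg19 with STAR (2.5.1, up to 2 mismatches) and deposited unnormalized counts per gene symbol, with 5 summary lines that were left out of library sizes. The annotation behind the counts is not given in the sources used here. Counts were filtered with filterByExpr, normalized by TMM and fitted with edgeR (4.0.16, R 4.3.3) in 1 quasi-likelihood model of all 12 samples, with Benjamini-Hochberg adjustment over 16625 genes. Correlations used log2 CPM with a prior count of 2. Sequences came from GRCh37 and GENCODE, to which 22988 symbols were matched, 1450 by an older symbol. The fit was tested on simulated counts with the same spread for every gene and no outlying library. The data differ in this, so the simulation checked the code and not the calls made here. The genes described and the lists were chosen with earlier results of these data known. Genes named are the pair, E2F1, the AADAC family, the neighbours, all genes called in a list (where over 6, the 6 largest in WT whose mean count reached 50) and the 10 most alike. List genes named although they were not called were chosen after their values were seen. They are CES1, CES2, GSTP1, POR, EPHX1, PPARA, CDX2, MCM3, MCM6, TK1, CDC25A, E2F2, VIM, other mesenchymal markers and the markers with few reads. Alternatives were DESeq2 (1.42.0), RLE factors, other filters and thresholds, the replicate number as a block, and leaving out each replicate. The WT means without WT replicate 2 were added after seeing the data. Replicate numbers did not pair the samples. P-values measure the spread between these samples. 1 tested neighbour is counted but not reported here.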

Additional observations from a re-analysis of the deposited data

Results flagged for a closer look

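The change of CYP2E1 against pTRE differed between the lines, with R109K the highest line, where AADAC had R109K as the lowest of the 3. Its counts were 12, 16 and 12 in pTRE, 13, 5 and 15 in WT, 15, 8 and 13 in KK and 60, 61 and 54 in R109K. The R109K samples lay above all others, with a log2 difference of 2.14 to WT (adjusted p = 0.00307) and of 2.15 to KK (adjusted p = 0.00459) by edgeR. The counts were low. Without R109K replicate 3 the difference to KK had an adjusted p of 0.0517, and under DESeq2 it had one of 4.06e-05.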

How the results depend on the processing

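All 216 alternative log2 fold changes of AADAC, AADACP1 and E2F1 and all 16 alternative ratios of the pair kept their direction and their side of the threshold or moved within the replicate spread. Genes called in R109K against WT, KK against WT and R109K against KK (57, 1 and 15) became 134, 5 and 64 under DESeq2 and 99, 4 and 32 with no filter. R109K against KK gave 8 with at least 10 counts in every sample, and the adjusted p of 0.05 gave 150 (R109K against WT) and 60 (R109K against KK). With only the 6 samples of a comparison edgeR called 0, 0 and 3 (3078, 625 and 2355 at an unadjusted p under 0.05). The glmTreat test called 1, 0 and 0 (207, 90 and 82 unadjusted), and 592, 567 and 311 in WT, KK and R109K against pTRE. With a replicate left out, the 3 counts between lines ranged from 3 to 157, 0 to 2 (670 to 2003 unadjusted where 0) and 1 to 11. Called neighbours (2) became 4 under DESeq2, 5 with no filter, 1 with at least 10 counts, where CYP2E1 and SULT1A1 were not tested (0 called in the drug list) and 1 intestinal gene was called, and 1 to 3 with a replicate left out. In these settings the neighbour lost was P2RY14, those gained were AADACL2-AS1, P2RY13, GPR171 or IGSF10, and MED12L was called in each. The cause of these changes was not tested.

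Replicate numbers did not mark pairs (mean correlation of same-numbered deviations 0.0436 over 18 pairs, -0.0235 for other numbers). With the replicate block, KK against WT had 0 called genes (1250 unadjusted) and 1 neighbour was called, while AADAC and AADACP1 in WT against pTRE had log2 fold changes of 4.37 and 4.09. Within lines, AADAC and E2F1 had a rho of -0.00699, and r from -0.539 to 0.300 with a sample left out, negative without WT replicate 1 (-0.0512), WT replicate 3 or KK replicate 2 (-0.0077). AADAC and AADACP1 had r from -0.587 (without WT replicate 3) to 0.724, and AADACP1 and E2F1 from 0.210 (without WT replicate 3) to 0.714 (without WT replicate 2). Depth limits the pTRE values most, at 12 to 18 reads a gene.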
